A study of Sus scrofa domesticus with 4 samples.

Results

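CD163, VSIG4, CD14, SIGLEC1, AIF1, FCGR3A, FCER1G and FCGRT, 8 genes of tissue macrophage receptors and Fc receptors, were followed in explants of myometrium, the muscular wall of the pig uterus. Their members were all non-control probes whose transcript accession belongs to one of these genes, 21 of the 43603 probes and 8 of the 3029 named genes on the array. The genes were chosen by their log2 ratios of adiponectin over control in these same arrays, so every ratio below is a description and carries no test of its own. Adiponectin is a hormone secreted mainly by fat tissue.

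The tissue came from 4 gilts (Large White x Polish Landrace, 7 to 8 months old) on days 15 to 16 of gestation, and every explant came from a pregnant animal. Treated explants received adiponectin at 10 µg/ml for 24 h of culture, and control explants spent the same time in culture untreated. Each of the 4 two-colour arrays held 1 treated and 1 control RNA, with treated RNA in the dye Cy5 on arrays 1 and 3, and with the dyes swapped on arrays 2 and 4, where Cy3 marks the treated RNA. Duplicate cultures were made per group. The labels say neither whether they were pooled nor whether 1 gilt gave both RNAs of an array. The unit is therefore the array, and part of the spread between the 4 arrays may be technical. Errors given below are moderated standard errors of a fit with a dye term. They leave out the mean difference between the 2 dye orientations and borrow variance from all tested probes. They can thus be smaller or larger than the plain spread of the 4 ratios would give.

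Resident macrophages clear debris and pathogens in the uterine wall and take part in its remodelling during pregnancy. CD163 is a scavenger receptor that takes up haemoglobin bound to haptoglobin, VSIG4 is a complement receptor of tissue macrophages, and SIGLEC1 (sialoadhesin) binds sialic acids on other cells and on microbes. CD14 is a co-receptor for bacterial endotoxin, and AIF1 (also called IBA1) is an actin-binding protein used as a macrophage marker. FCGR3A binds IgG in immune complexes and signals through FCER1G, the common gamma chain of several Fc receptors, while FCGRT, the neonatal Fc receptor, carries IgG through cells and protects it from breakdown.

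Each array had between 47.1% and 63.2% of probes well above background in the treated channel and between 46.2% and 56.5% in the control channel. These shares followed the dye, at 54.9% to 63.2% in Cy5 and 46.2% to 51.1% in Cy3. Counts of arrays well above background per condition therefore carry a difference between dyes. Smooth muscle genes matched the label of the tissue: all 5 matched markers (ACTA2, CNN1, DES, SMTN and MYLK) were well above background in both conditions on all 4 arrays. The ratio is the scanner software's log ratio in log2 units, positive where adiponectin was higher. Its median over the tested probes lay between -0.03 and 0.01 on the 4 arrays. A probe was tested when it was well above background on at least 3 arrays in one condition and had a usable ratio on every array, which 22074 probes did. Of the 21 receptor probes, 18 were tested, for 7 of the 8 genes. The 3 left out were 2 of the 4 CD163 probes, well above background in the treated channel on 2 arrays and on 1 array and on none in the control channel, and the single SIGLEC1 probe, which was not well above background in either channel of any array. The VSIG4 probes A_72_P558284, A_72_P643751 and A_72_P160701 and the CD14 probe A_72_P756625 met the background criterion in the treated channel only. For these the filter favours a ratio above 0, so counts of probes above 0 below are partly set by it. The brightest probe of each tested gene was well above background on all 4 arrays in both conditions.

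In the fit with limma across all tested probes, 0% were called higher and 0% lower with adiponectin at an adjusted p under 0.05, and 0 of the 18 receptor probes were called. The smallest adjusted p (limma, Benjamini-Hochberg) over all probes was 0.857, and 834 probes were higher and 422 lower at an unadjusted p under 0.05. That balance moved with the setting, to 323 higher and 16 lower with a mean-variance trend, 1644 and 1518 with no filter on dim probes, and 1299 and 1089 without array 3. Of the 18 receptor probes, 17 had a fitted log2 change above 0. Taken by gene, all 7 lay above 0, as did 45.6% of the 2131 named genes tested. The median over the 7 genes, each taken by its brightest tested probe, was 0.61, beside -0.02 over the 2131 named genes tested. On all 4 arrays alike, 3 of the 18 receptor probes had a ratio above 0, as did 6.37% of all tested probes.

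The arrays differed from each other in these genes. On array 1, 14 of the 18 probes had a ratio above 0 (51.3% of all tested probes), on array 2, 3 of 18 (48.7%), on array 3, 18 of 18 (51.4%), and on array 4, 17 of 18 (47.1%). Probes of 1 gene measure the same RNA, so probe counts here and below are not independent. Taken by gene, 6, 2, 7 and 7 of the 7 genes lay above 0 on arrays 1 to 4. The median ratio over the 7 genes was 0.47, -0.15, 1.47 and 0.90 on arrays 1 to 4. Array 3 thus stood highest and array 2 lowest, below 0. Array 4 was on a second slide, and over the 3 arrays of slide 1 the median fitted change was 0.35. It was 0.34 without array 3.

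**Figure D1:**
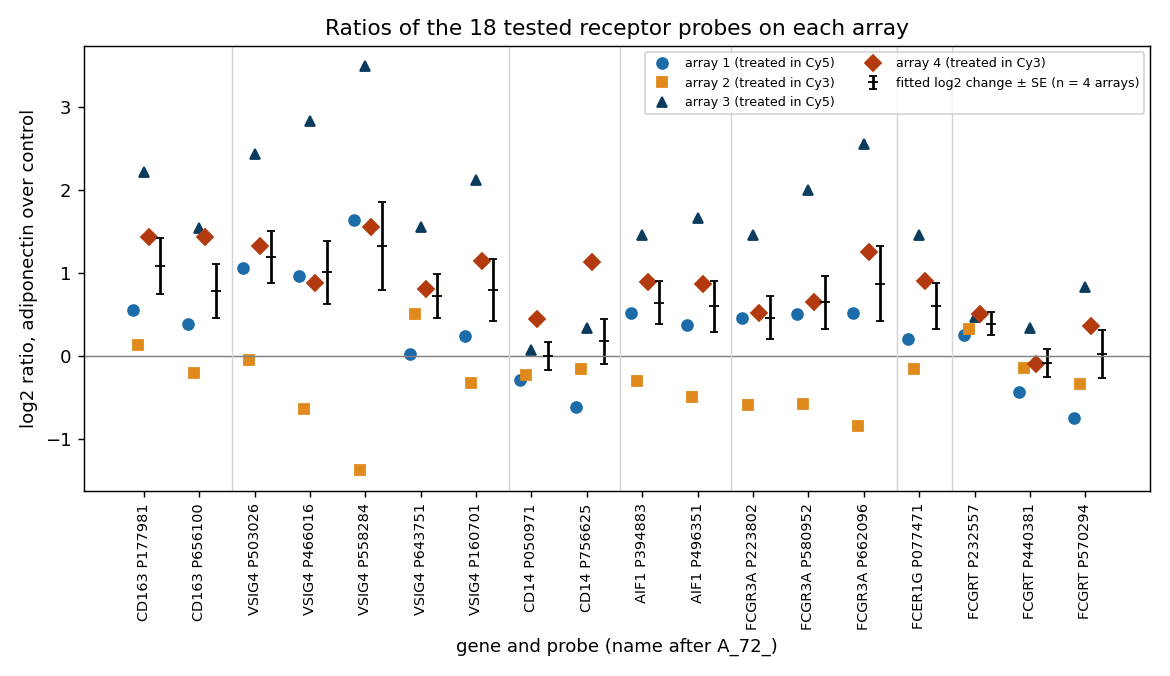
Each column is 1 of the 18 tested probes, grouped by gene. The vertical axis is the log2 ratio of adiponectin over control, with 1 symbol per array and, in black, the fitted log2 change ± SE over the 4 arrays. Array 3 gives the highest ratio for all probes of CD163, VSIG4, AIF1, FCGR3A and FCER1G, and array 2 lies lowest for all of these except 1 VSIG4 probe (A_72_P643751), whereas CD14 and FCGRT do not share this order.

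Of the 7 tested genes, the scavenger receptor CD163 and the complement receptor VSIG4 had the largest fitted values. The brightest CD163 probe (A_72_P177981) had processed signals of 692, 54.9, 525 and 834 intensity units in treated explants on arrays 1 to 4, against 471, 49.7, 113 and 307 units in control explants. Adiponectin was higher on each array, from very little on array 2 to several fold on array 3, while the treated and the control values overlapped across arrays. Such orders of processed signals across arrays, here and below, mix both dye orientations and were not scaled between arrays. The log2 ratios were 0.55, 0.14, 2.22 and 1.44, and the fitted change was 1.09 ± 0.34 (moderated SE, n = 4 arrays), 2.13-fold. Without array 3 it was 0.67. The other tested CD163 probe (A_72_P656100) had ratios of 0.39, -0.20, 1.54 and 1.43 and a fitted change of 0.79 ± 0.32, so its sign differed on array 2.

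VSIG4 was measured with 5 tested probes. Its brightest (A_72_P503026) had 503, 91.8, 489 and 575 units in treated explants, against 240, 94.7, 90.2 and 230 units in control explants. Treated explants of arrays 1, 3 and 4 lay above every control explant, and on array 2 both conditions were low and nearly equal. The ratios were 1.07, -0.04, 2.44 and 1.32, with a fitted change of 1.20 ± 0.31 (SE, n = 4 arrays), 2.29-fold. The 5 probes spanned fitted changes of 0.73 to 1.33, all above 0, and their ratios ran from 1.56 to 3.50 on array 3 and from -1.37 to 0.51 on array 2. Probes A_72_P558284, A_72_P643751 and A_72_P160701 were tested only through their treated channel, which favours values above 0. The dimmest (A_72_P160701) was well above background on 3 arrays in treated explants and on none in control explants. Its ratios were 0.25, -0.33, 2.13 and 1.15 on arrays 1 to 4. Its treated mean was 1.13-fold above its control mean, a measured value and no lower limit. Both were means of channel signals after normexp with an offset of 50, loess and Aquantile normalisation, a scale that compresses folds of dim probes relative to the processed signals given elsewhere, and may carry dye bias. The lowest signal among probes well above background served as a floor per array, and the probe's own control signal was never below it.

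AIF1 gave the same order of arrays on both of its probes. The brighter (A_72_P394883) had 1531, 622, 1406 and 1704 units in treated explants, against 1066, 764, 508 and 916 units in control explants. On arrays 1, 3 and 4 the treated signal was above every control signal, and on array 2 it was below all of them but that of array 3. The ratios were 0.52, -0.30, 1.47 and 0.90, with a fitted change of 0.65 ± 0.26, and 0.60 ± 0.31 for the other probe (SE, n = 4 arrays). Without array 3 the first was 0.41 and without array 4 it was 0.35.

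CD14 differed from the other macrophage genes. Its brighter probe (A_72_P050971) had 439, 418, 493 and 505 units in treated explants, against 533, 489, 469 and 368 units in control explants, so the conditions overlapped. The ratios were -0.28, -0.23, 0.07 and 0.46, with a fitted change of 0.01 ± 0.17 (SE, n = 4 arrays). This value was -0.08 without array 3, -0.16 without array 4 and -0.01 with normexp background correction and loess. The dimmer probe had the same sign on each array, at -0.61, -0.15, 0.35 and 1.14.

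The IgG receptor FCGR3A and its signalling chain FCER1G shared the order of arrays seen for AIF1, with array 3 highest and array 2 lowest. The brightest FCGR3A probe (A_72_P223802) had 1260, 648, 1642 and 1383 units in treated explants, against 911, 976, 594 and 964 units in control explants. Treated signal was higher on arrays 1, 3 and 4 and lower on array 2. Its ratios were 0.47, -0.59, 1.47 and 0.52, with a fitted change of 0.47 ± 0.26 (SE, n = 4 arrays). The value was 0.22 without array 3 and 0.19 without array 4, and 0.72 without array 1 and 0.74 without array 2. The 3 FCGR3A probes had the same sign on every array. They ran from 0.47 to 0.52 on array 1, from -0.84 to -0.57 on array 2 and from 1.47 to 2.56 on array 3.

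FCER1G, represented by 1 probe, had 880, 355, 863 and 1401 units in treated explants, against 760, 395, 314 and 748 units in control explants. Arrays 1, 3 and 4 were higher in treated explants and array 2 was lower by a small amount. The ratios were 0.21, -0.15, 1.46 and 0.90, with a fitted change of 0.61 ± 0.27 (SE, n = 4 arrays). It was 0.29 without array 3, 0.34 without array 4 and 0.92 without array 1.

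FCGRT gave unlike values by probe. Its brightest probe (A_72_P232557) had 13203, 10993, 11166 and 12546 units in treated explants, against 11045, 8757, 8034 and 8800 units in control explants. The ratios of 0.26, 0.33, 0.47 and 0.51 lay close together, and the fitted change was 0.39 ± 0.14 (SE, n = 4 arrays), 1.31-fold. The treated and control signals overlapped only in that the control of array 1 exceeded the treated signal of array 2. The other FCGRT probes stood at -0.08 ± 0.17 and 0.03 ± 0.29, with array ratios from -0.74 to 0.83 between them, and the mean of the 3 probes was 0.11. The probes therefore do not give 1 direction for the gene.

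Signals of both channels were then compared between arrays to describe which explant went with a high or low ratio. The level here is the log2 processed signal minus the 75th percentile of its channel. Differences in level were taken for the same probe and between arrays with the same dye orientation, 3 minus 1 and 4 minus 2. Control levels were lower on array 3 than on array 1 for 17 of the 18 receptor probes (50% of all tested probes), with a median difference of -0.94, beside 0.00 over all tested probes. Treated levels were higher on array 3 than on array 1 for 14 of 18 (48.6%), with a median difference of 0.20. The large ratios of array 3 thus went mostly with a low control explant.

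For CD163 the control level was 0.20 on array 1 and -1.67 on array 3, a difference of -1.87, whereas the treated levels were 0.76 and 0.54. For VSIG4 the control levels were -0.77 and -1.99, and the treated levels 0.30 and 0.43. FCER1G differed by -1.08 in control and 0.15 in treated explants. AIF1 differed by -0.88 in control and 0.05 in treated explants. FCGR3A differed less in control explants, by -0.43 for its brightest probe, and more in treated ones, by 0.56. CD14 control levels were equal within 0.01.

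Array 2 was low in both conditions for part of the genes. Treated levels were higher on array 4 than on array 2 for 16 of 18 probes (42.8% of all tested probes), with a median difference of 1.17, beside -0.13 over all tested probes. Control levels were higher on array 4 for 10 of 18 (45.4%), with a median difference of 0.15. CD163 had a treated level of -2.40 on array 2 and 1.32 on array 4, a difference of 3.71, and control levels of -2.53 and -0.11, a difference of 2.42. VSIG4 differed by 2.44 in treated and 1.08 in control explants. FCGR3A differed by 0.88 in treated and -0.22 in control explants, and FCGRT by -0.02 and -0.20. For this CD163 probe both differences between arrays 4 and 2 were larger than its largest ratio between treated and control explants on a single array, whereas the other tested CD163 probe differed by 2.25 in treated and 0.63 in control explants. Arrays 2 and 4 were on different slides, and slide and explant cannot be told apart here.

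**Figure D2:**
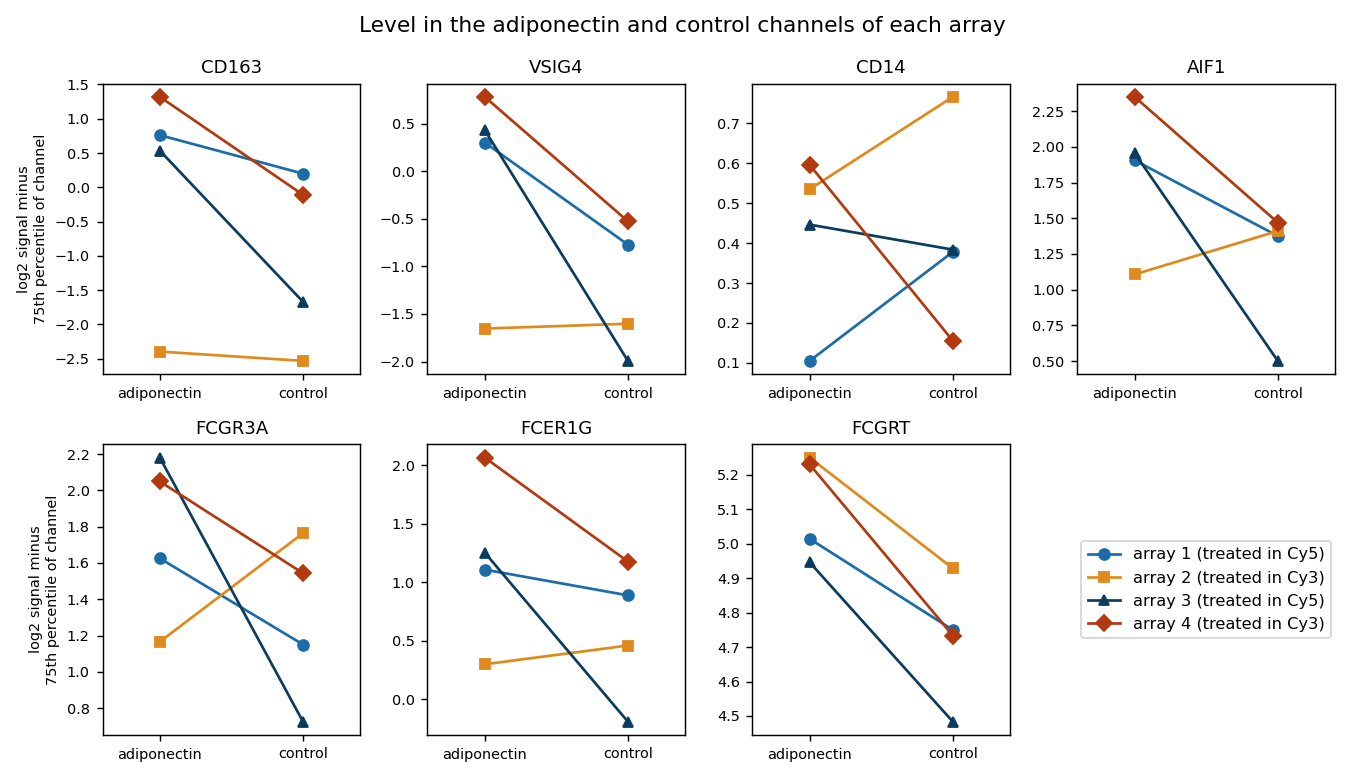
Each panel is 1 gene, by its brightest tested probe, and each line joins the adiponectin and the control channel of 1 array. The vertical axis, with its own range per panel, is the log2 signal minus the 75th percentile of the channel. The array 3 line of CD163, VSIG4, AIF1, FCGR3A and FCER1G ends at a low control level, and array 2 is low at both ends for CD163 and VSIG4.

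**Figure D3:**
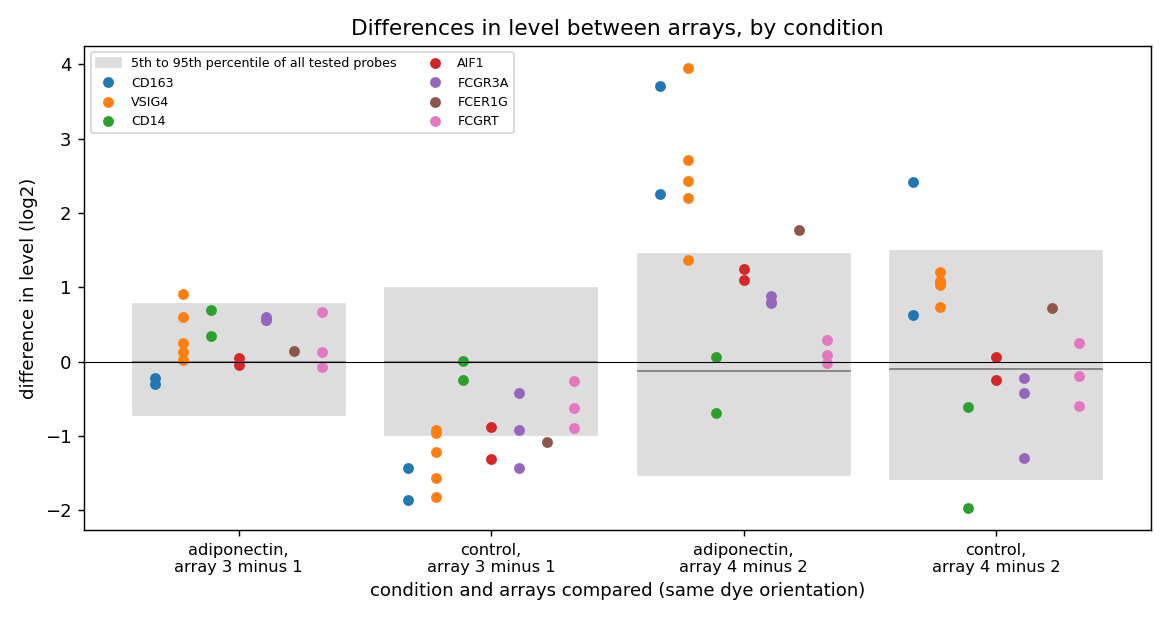
Points are the 18 tested probes, coloured by gene, and the vertical axis is the difference in log2 level between 2 arrays of the same dye orientation. Grey bands run from the 5th to the 95th percentile of all tested probes, and grey lines mark their median. For the control explants of array 3 minus array 1, 8 probes lie below the band: both of CD163, 3 of the 5 of VSIG4, that of FCER1G, 1 of AIF1 and 1 of FCGR3A; for the treated explants of array 4 minus array 2, 7 lie above it: both of CD163, 4 of the 5 of VSIG4 and that of FCER1G.

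Other macrophage genes showed how far this order of arrays went beyond the receptors. In these bulk samples, fewer macrophages and less RNA per macrophage cannot be told apart. Of 23 listed genes, 10 were matched by accession and 7 were tested, with 5 above 0, 2 below 0 and 0 called. Their median ratio was 0.45, -0.60, 2.10 and 0.60 on arrays 1 to 4. MRC1, the mannose receptor, stood at 0.81 ± 0.34 with ratios of 0.42, -0.18, 2.36 and 0.63. C1QC, a chain of complement C1q made by macrophages, stood at 0.80 ± 0.49 with 0.45, -1.07, 3.18 and 0.64. TREM2, a lipid-sensing receptor, stood at -0.01 ± 0.15, and FOLR2, a folate receptor of resident macrophages, at -0.31 ± 0.23, with array 3 the highest for both (0.22 and 0.42). Summed levels, here and below, add the unlogged signal of each gene divided by the 75th percentile of its channel, so the brightest genes weigh most. They are given as ranges over the 4 arrays and so mix both dye orientations and probes of unlike brightness. The sum of the 7 genes ranged from 3.56 to 16.1 in treated and from 2.27 to 11.04 in control explants. CD209 and LYZ, also on the array, were well above background on at most 1 and 2 arrays in either condition, and SPI1 on none.

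Markers of other cell types that can carry some of these receptors were few. Of the genes listed for monocytes, 4 of 8 were tested, S100A8, S100A9, S100A12 and VCAN, with a median ratio of 0.22, -0.21, -0.41 and 0.22. Their summed level ranged from 1.41 to 11.4 in treated and from 1.26 to 10.6 in control explants, and is no measure of monocyte content alone. CCR2 was well above background on at most 1 array in either condition, and FCN1 on none. Of the neutrophil genes 1 of 8 was tested, PGLYRP1, at -0.54 ± 0.18. Of the NK and T cell genes 2 of 9 were tested. NKG7, a granule protein of killer lymphocytes, stood at 0.22 ± 0.21 and GZMB, a granule protease, at -0.01 ± 0.16. NKG7 had ratios of 0.28, -0.65, 1.08 and 0.16 on arrays 1 to 4, with array 3 highest and array 2 lowest. GZMB, with 0.39, -0.05, -0.27 and -0.11, did not share this order. A further 6 genes of this list were on the array but not tested. Of these, CD3E passed the background criterion in 2 treated and 2 control channels, CD2 in 2 treated and 1 control, KLRK1 in 2 treated and CD4 in 1 treated, and CD3D and CD8A in none. The summed level of the 2 tested genes ranged from 1.06 to 1.23 in treated and from 0.86 to 1.27 in control explants. Of the mast cell genes KIT alone was tested, at 0.08 ± 0.17, and MS4A2, the beta chain of the IgE receptor, was not well above background on any array.

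Markers of the main tissue layers also differed between arrays. The median ratio of the 5 smooth muscle genes was -0.66, -0.10, 0.95 and -0.25 on arrays 1 to 4, and their summed level ranged from 496 to 1050 in treated and from 456 to 1156 in control explants. Of 5 epithelial markers, 3 were tested, with medians of -0.09, 1.24, -0.95 and 0.98 and summed levels from 0.465 to 14.0 in treated and from 0.49 to 5.35 in control explants. The 4 of 6 tested endothelial markers had medians of 0.07, -0.23, -0.04 and 0.27 and sums of 16.7 to 25.5 in treated and 16.1 to 27.7 in control explants. The 3 of 7 tested stromal markers had medians of 0.47, -0.28, -0.34 and -0.16 and sums of 135 to 202 in treated and 114 to 226 in control explants. The part of tissue composition in the receptor ratios was not tested.

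**Figure D4:**
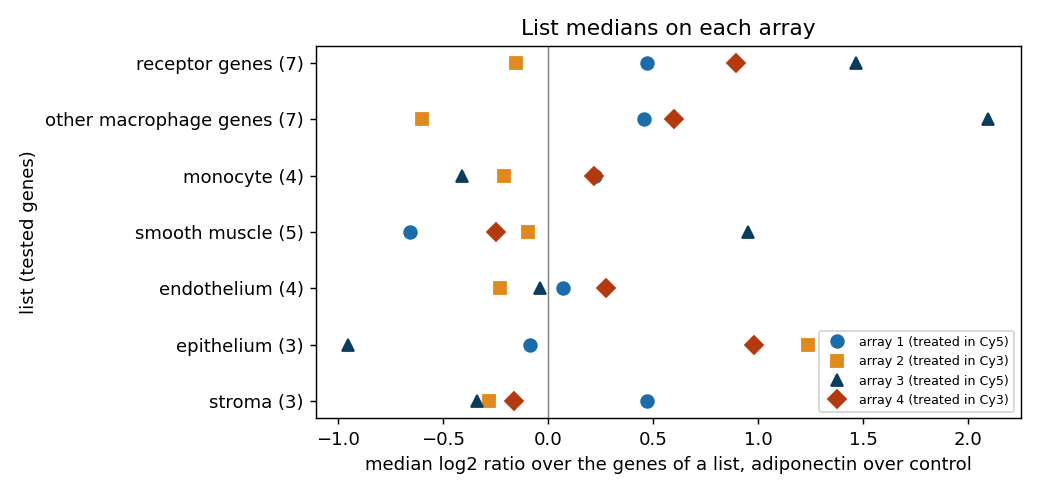
Rows are the 7 tested receptor genes and the cell type lists with at least 3 tested genes, with the number of tested genes in brackets. The horizontal axis is the median log2 ratio of adiponectin over control, with 1 symbol per array. Array 3 lies highest for the receptor genes, the other macrophage genes and smooth muscle, and lowest for the monocyte, epithelial and stromal lists.

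Partners of these receptors were followed by list. Of 24 genes of Fc receptors and their signalling, 6 were tested, with 3 above 0, 3 below 0, 0 called and a median of 0.07. SYK, the kinase that binds the phosphorylated gamma chain, stood at 0.49 ± 0.22 with ratios of 0.43, -0.26, 1.41 and 0.37. TYROBP, an adaptor related to FCER1G, stood at 0.42 ± 0.22 with 0.14, -0.15, 1.24 and 0.43. FYN, a kinase of the Src family, was lowest at -0.27 ± 0.13, and CD247, the zeta chain of the T cell receptor, stood at -0.03 ± 0.15. The high-affinity receptor FCGR1A and the kinase BTK were not well above background on any array. B2M, the light chain that pairs with FCGRT, stood at -0.05 ± 0.14.

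Around CD14, 11 of 15 genes of endotoxin sensing were tested, with 7 above 0, 4 below 0, 0 called and a median of 0.07. The receptor TLR4, which CD14 serves, stood at 0.07 ± 0.20 and its partner LY96 at -0.11 ± 0.15. The cytokine IL10 stood at 0.70 ± 0.45 with ratios of 0.14, -0.31, 3.04 and -0.07, and IL1B at 0.57 ± 0.77 with -1.95, 0.17, 3.14 and 0.91. The adaptor TICAM2 was lowest at -0.52 ± 0.17, and MYD88, an adaptor of most Toll-like receptors, stood at -0.18 ± 0.38.

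Downstream of CD163, 5 of 10 genes of haemoglobin and iron handling were tested, with 4 above 0, 1 below 0, 0 called and a median of 0.11. FTH1, the ferritin heavy chain, stood at 0.49 ± 0.14 with ratios of 0.57, 0.19, 0.86 and 0.32. HPX, which binds free haem in plasma, stood at 0.25 ± 0.19, the ferritin light chain FTL at -0.15 ± 0.16 and SLC11A1, a metal transporter of phagosomes, at 0.05 ± 0.18. HMOX1, which breaks down haem, stood at 0.11 ± 0.16. HP, haptoglobin, was well above background on at most 2 arrays.

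Genes of macrophage growth and polarisation had a median of -0.03 over 7 of 14 tested, with 3 above 0, 4 below 0 and 0 called. ARG1, an arginine-degrading enzyme, stood at 0.82 ± 0.43 with ratios of 1.12, -0.86, 1.09 and 1.93, and CSF2, a growth factor of myeloid cells, at 0.09 ± 0.48. NOS2, the inducible nitric oxide synthase, stood at -0.48 ± 0.21 with -0.46, 0.00, -1.58 and 0.14, and STAT6, which relays interleukin 4 signals, at -0.17 ± 0.21.

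The named genes whose 4 ratios lay nearest those of CD163 were ranked by the root mean square difference over the 4 arrays among 2041 genes outside the lists, where the median over all named genes was 1.38. MMP9, a gelatin-degrading protease, lay nearest at 0.20, with ratios of 0.52, 0.03, 1.87 and 1.29. The chemokines PPBP (0.32) and CXCL8 (0.37) followed. Among the receptors, VSIG4 lay at 0.30, AIF1 at 0.51, FCER1G at 0.52, FCGR3A at 0.70, FCGRT at 1.00 and CD14 at 1.26. For FCGR3A the median over all named genes was smaller, at 0.90. Outside the lists, CYP3A29, a drug-metabolising cytochrome (0.16), FABP5, a fatty acid binding protein (0.25), and CTSZ, a lysosomal protease (0.27), lay nearest to FCGR3A. AMBN (0.34) and THBD, thrombomodulin (0.35), followed. Genes of the marker and pathway lists were not ranked, also where their ratios were similar. Examples are CD86 of the macrophage list, at 0.59, -0.36, 1.37 and 0.56 on arrays 1 to 4, and SYK, given above. Among the receptors AIF1 lay nearest to FCGR3A at 0.24 and CD14 farthest at 0.81. These distances rest on 4 arrays and include each probe's dye offset.

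The dye offset of single arrays was described from the same fit. The dye term was called for 0% of the tested probes and for 0 of the 18 receptor probes (smallest limma adjusted p of a receptor probe 0.620). The fitted Cy5 over Cy3 offset was 0.30 for CD163, 0.56 for VSIG4, 0.50 for FCGR3A and -0.03 for FCGRT on the log2 scale. In this balanced fit its SE equals that of the fitted change. The offset compares arrays 1 and 3 with arrays 2 and 4, so dye and differences between explants cannot be told apart in it.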

How the data were processed

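The members and gene lists were chosen with earlier results of these data known. Per the file headers, the deposited scanner files were made with Agilent Feature Extraction 10.7.3.1 and hold, per spot, the intensity of each channel and a log10 ratio of background-subtracted, dye-normalised signals of Cy5 over Cy3. The deposited series table holds log2 ratios; for probes bright in both channels all its values lay within 0.01 of the scanner ratios turned to treated over control by the dye fields, with column medians of -0.10, 0.13, -0.14 and 0.16. Its treatment of dim probes stays unknown, and the labelling text describes treated RNA in Cy5 only. Ratios were divided by log10 of 2 and turned on arrays 2 and 4. Outlier-marked spots and ratios of exactly 0 (18.1% to 28.9% of spots) were left out, and spots of a probe averaged.

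Of 43603 probes, 7125 had a RefSeq accession and 6700 received a symbol (assembly Sscrofa11.1, names only). Ratios were fitted with limma 3.58.1 in R 4.3.3 with treatment and dye coefficients, two-sided, adjusted by Benjamini-Hochberg over 22074 probes at 0.05, and the script was tested on simulated data. With 4 arrays, 95% intervals had a median half-width of 0.39 (log2) over all tested probes, so the number of arrays limits the precision. Intervals were wider for the brightest probes of CD163 (0.25 to 1.93), FCGR3A (-0.17 to 1.10) and FCER1G (-0.07 to 1.28). That of FCGRT was narrower (0.06 to 0.73). For the receptors these intervals are a description and no test. The named genes were all members, up to 2 highest and 2 lowest per list, and 5 nearest genes outside the lists to each of CD163 and FCGR3A. A few more were chosen after their values were seen (the central partners TLR4, LY96 and HMOX1, CD86 and untested markers). A few genes that these rules pick are not reported here. Alternatives were another background correction and normalisation (normexp, offset 50, with loess), median centring, the series table, no dye term, 2 other filters, the mean of a gene's probes, a variance trend and each array left out. The files name no genome build, so no coordinates are given.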

Additional observations from a re-analysis of the deposited data

Results flagged for a closer look

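In 54 sets of 4 array values (ratio, treated level and control level of the 18 tested probes), 3 had 1 array far from the other 3, where chance flags about 1 in 20 sets. The VSIG4 probe A_72_P466016 had a treated level of -3.35 on array 2, while the others lay between -0.96 and -0.64. The AIF1 probe A_72_P394883 had a control level of 0.50 on array 3, while the others lay between 1.38 and 1.47. The FCGRT probe A_72_P570294 had a treated level of -0.56 on array 1, while the others lay between 0.09 and 0.18. These sets mix both dye orientations.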

How the results depend on the processing

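Under the 8 alternatives other than array omissions, 64 log2 values of the 7 genes and of their median were compared. Of these, 63 moved by less than 1 SD of the array values. The exception was FCGRT, at 0.11 when its 3 probes were averaged. This count says little about stability, because most alternatives could hardly move a value. Dropping the dye term, the 2 other filters and the variance trend leave a gene's coefficient unchanged. The series table holds the same ratios, and median centring shifts all genes alike. The SD itself was wide, at 0.93 for CD163 and 1.02 for VSIG4. With normexp and loess CD163 stood at 0.87, VSIG4 at 0.83 and the median at 0.55. With array omissions the ranges were 0.67 to 1.50 for CD163, 0.85 to 1.54 for VSIG4, 0.35 to 0.95 for AIF1, 0.19 to 0.74 for FCGR3A, 0.29 to 0.92 for FCER1G, 0.34 to 0.45 for FCGRT, -0.16 to 0.18 for CD14 and 0.34 to 0.88 for their median. Each omission leaves 1 dye orientation with a single array, which then weighs as much as the other 2. Probes called for adiponectin, and for the dye term, numbered 0 in each omission except that of array 3, where 12 were called for each, none a receptor probe, so the counts ranged from 0 to 12. Slide as a random block could not be fitted, since 1 slide holds 1 array. The ratios already pair the 2 RNAs of an array, so every fit above is paired by array. Signal over background limits SIGLEC1 and 2 CD163 probes, which were not tested here. The CD163 probe A_72_P170001 had ratios of 0.96, -1.33, 1.07 and 0.03 on arrays 1 to 4. The CD163 probe A_72_P624895 had 0.21, 0.00, 1.97 and 0.87. Most of these signals were not well above background.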
